A study of Homo sapiens with 6 samples.

Results

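The D cyclins CCND1, CCND2 and CCND3, the kinases CDK4, CDK6 and CDK2, and the CDK inhibitors CDKN1B, CDKN1C, CDKN2C and CDKN2D were followed in U87 cells treated with rutaecarpine. Members were chosen by symbol, as the rows of the expression table that carry these names, which gave 10 genes of the 60671 listed. They control the passage from G1 into S phase. D cyclins are made in answer to growth signals and form active kinases with CDK4 and CDK6, which begin the phosphorylation of the retinoblastoma protein, and CDK2 with its cyclins E and A then completes it, so that E2F factors are released and the genes of DNA replication are switched on. The inhibitors oppose this in different ways: the INK4 proteins, such as those of CDKN2C and CDKN2D, bind CDK4 and CDK6 alone, whereas the CIP/KIP proteins, such as those of CDKN1B and CDKN1C, bind cyclin-CDK complexes and above all block those of CDK2.

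U87 is an established human glioblastoma cell line, and rutaecarpine is an alkaloid of Evodia rutaecarpa that the study examined as a ligand of the aryl hydrocarbon receptor (AhR). In the RNA-Seq experiment, 3 libraries came from cells given 100 μM rutaecarpine in 0.1% DMSO for 48 h, and 3 came from solvent control cells given 0.1% DMSO alone for the same time. The paper describes dosing in serum-free medium as its general procedure, although its wound-healing assays used low-serum medium. It does not state the medium of the RNA-Seq cells separately. The deposited values are TPM, which scale the reads of each gene by its length and each library to a common total, so levels can be set side by side between genes, but they keep no read numbers. Nothing in the labels says that the 3 libraries of a group came from separate cultures, so the p values measure the spread between these libraries, which may be technical. In a bulk sample, fewer cells of a type and less RNA per cell cannot be told apart.

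The libraries summed to between 990889 and 995734 TPM. A gene was tested if 3 or more of the 6 libraries held 1 TPM or more of it, which left 14377 genes, and the test was that of limma on log2(TPM + 1). Control replicate 3 stood apart, with a median log2(TPM + 1) of 3.56 over these genes, against 3.97 and 3.95 in the other controls and 3.81 to 4.00 after rutaecarpine. Its shift from the mean of the other controls ran with transcript length, from a median of 0.08 on the log2 scale in the shortest quartile of genes to -0.64 in the longest. For the members whose call or direction rests on this library, and for the total counts of calls, results are given with and without it. Single genes of the lists below, and the list medians, are given with it only. It held the lowest control value of many of these genes, such as SKP2 and RB1. The markers of the line were mixed: VIM, CD44, FN1 and CHI3L1 summed with the other listed markers to between 10730 and 17036 TPM in each library, whereas GFAP lay between 3.48 and 5.41 TPM and S100B and SOX2 stayed below 1 TPM everywhere. The summed level of these 9 markers was lower after rutaecarpine (10730 to 11986 TPM) than in the controls (14758 to 17036 TPM), with lower VIM, NES and FN1 and higher OLIG2 by limma, and its part in the results below was not tested. Of 10 markers of other cell types, 6 stayed below 1 TPM everywhere and CD68 alone was abundant, at 319 to 511 TPM and lower after rutaecarpine (log2 fold change -0.46), and PTPRC, which marks blood cells, reached no more than 0.03 TPM.

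Promoter sequence is shown for CDKN1B and CDKN2D, the inhibitors whose treated libraries lay on opposite sides of the controls. RefSeq windows on GRCh38.p14, which run from 250 bases before to 50 bases after a transcription start, were at hand for 6 of the 10 members (11 windows). Both strands were searched for GCGTG, the core of the element that AhR binds, and for TNGCGTG, the longer form of the same element, which always holds the core. The core lay in 6 of the 11 windows, against 36.5% of the 35116 windows of all genes. TNGCGTG lay in 1 of the 11, that of CDKN1B, against 5.51% of all windows. The letters TTTGGCG and TTTCCCG of E2F elements and TGANTCA of AP-1 elements were in 0 of the 11 windows, against 1.92%, 4.29% and 7.71% of all. The stretch of CDKN1B is chr12:12717172-12717198 on the plus strand, which lies inside the first exon of a longer GENCODE transcript. The stretch of CDKN2D is chr19:10569060-10569229 on the minus strand, upstream of every annotated exon. Only part of the CDKN2D window is shown, with 1 of the 2 AhR cores that the window holds. Capitals mark the AhR core in either orientation, and a match is a description of the letters and not evidence of binding.
CDKN1B: cctccagcagtCACGCgaccagccaat
CDKN2D: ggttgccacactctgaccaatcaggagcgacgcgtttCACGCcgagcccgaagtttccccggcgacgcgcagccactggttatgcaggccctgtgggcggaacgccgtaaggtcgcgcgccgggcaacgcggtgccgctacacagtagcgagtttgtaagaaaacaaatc

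Among the members, U87 cells expressed one main D cyclin, one main D-cyclin kinase and one inhibitor of each family. In the control group the levels ran from CDK4 at 234 ± 31.0 TPM (SD, n = 3) and CCND1 at 133 ± 37.7 TPM down to CDK6 at 3.53 ± 1.78 TPM. Between them, CDK2, CDKN2D, CCND3 and CDKN1B lay close together at 43.3, 36.1, 34.6 and 33.4 TPM, and the control libraries of each of these neighbours overlapped. After rutaecarpine the order in the middle was different. CDKN1B, at 50.5 TPM, was above CCND3, CDK2 and CDKN2D, at 26.9, 26.0 and 22.3 TPM, in every rutaecarpine library. CCND3 and CDK2 overlapped there, and all 3 libraries of CDKN2D lay below both.
CCND2, CDKN1C and CDKN2C, which were chosen as genes present in this line, stayed below 1 TPM in all 6 libraries. They were not tested, which left 7 members in the comparison.

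**Figure D1:**
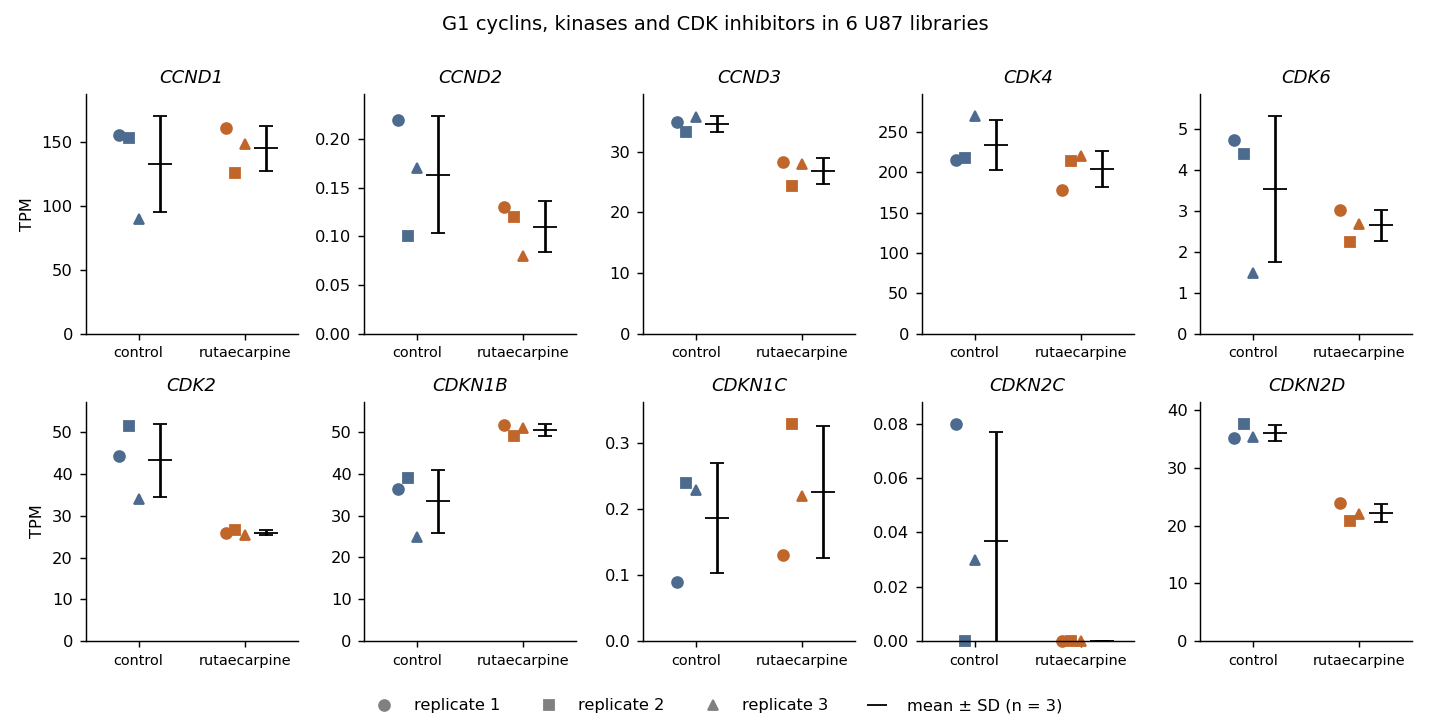
TPM of the 10 members in each of the 6 libraries, with 1 panel per gene, a linear axis from 0 that differs between panels, one symbol per replicate, and a line and bar for the mean and SD of 3 libraries. Rutaecarpine libraries of CDK2, CCND3 and CDKN2D all lie below the controls and those of CDKN1B all lie above, while CCND2, CDKN1C and CDKN2C stay below 1 TPM.

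Of the 7 members tested, 2 had lower expression after rutaecarpine at an adjusted p of at most 0.05 (limma, with Benjamini-Hochberg adjustment across the table), CDKN2D and CDK2, and 0 had higher expression. Among all genes tested, 4.68% were lower and 4.6% higher. None of the 7 was a differentially expressed gene by the further requirement of a log2 fold change beyond 1, which 3.51% of all genes met. For 4 of the 7 the groups were fully apart, 3 lower and 1 higher after rutaecarpine, as they were for 33.3% of all genes. Before adjustment, 3506 of all genes had a p under 0.05. Without control replicate 3, CDK6 joined CDKN2D and CDK2 among the genes that fell, CDKN1B was the 1 that rose, and 10.3% of all genes were lower and 8.2% higher.

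**Figure D2:**
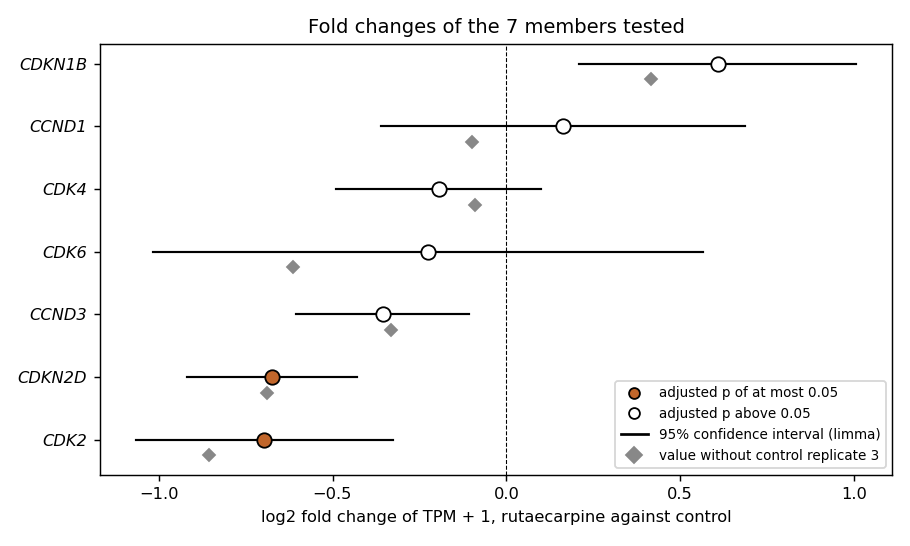
Log2 fold change of TPM + 1 after rutaecarpine for the 7 members tested, with the 95% confidence interval from limma, filled where the adjusted p is at most 0.05, and a diamond for the value without control replicate 3. CDK2 at -0.70 and CDKN2D at -0.68 are filled, and the diamonds of CCND1, CDK6 and CDKN1B are the ones that move a sign or a call.

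CCND1 (ENSG00000110092, chromosome 11, 69641087 to 69654474, plus strand) encodes cyclin D1, the main cyclin partner of CDK4 in many tumour cells. Its TPM was 155.91, 153.71 and 89.60 in control replicates 1, 2 and 3, and 161.15, 126.23 and 148.43 in rutaecarpine replicates 1, 2 and 3. The groups overlapped, and the lowest value was that of control replicate 3. The log2 fold change was 0.16 (standard error 0.22, 95% confidence interval -0.36 to 0.69, adjusted p = 0.685 by limma), and its direction turned without control replicate 3 (-0.10, adjusted p = 0.569 by limma) and with library weights (-0.01). CCND1 lay at the 92.8th percentile of the tested genes in the control group and at the 93.3rd after rutaecarpine. LTO1, which overlaps its end on the opposite strand over 1399 bp, had between 16.93 and 25.76 TPM, and whether the library kept strand is not given in the sources used here.
CCND3 (ENSG00000112576, chromosome 6, 41934933 to 42050357, minus strand), which encodes cyclin D3, was the second D cyclin of the line. It had a TPM of 34.91, 33.22 and 35.77 in the controls and 28.30, 24.43 and 27.96 after rutaecarpine. Every rutaecarpine library lay below every control library, and control replicate 3 was close to the other controls. The ratio of the means was 0.777, and the log2 fold change of -0.36 (standard error 0.11, 95% confidence interval -0.60 to -0.11) did not pass the test (adjusted p = 0.0890 by limma), nor did any fit that left out 1 library. It passed with library weights (adjusted p = 0.0235) and with a correction for transcript length and GC content (adjusted p = 0.0243).
CCND2 (ENSG00000118971, chromosome 12, 4273772 to 4305350, plus strand) was at the floor of the table, between 0.10 and 0.22 TPM in the controls and between 0.08 and 0.13 TPM after rutaecarpine. AC008012.1, annotated over the whole of CCND2 on the same strand (31579 bp), had between 0 and 1.55 TPM, which makes the values of CCND2 less certain.

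As a share of the summed D-cyclin TPM, CCND1 made up 81.6%, 82.2% and 71.4% in control replicates 1, 2 and 3 and 85.0%, 83.7% and 84.1% after rutaecarpine. CCND3 made up nearly all the rest, at 17.8% to 28.5% in the controls and 14.9% to 16.2% after rutaecarpine, and CCND2 no more than 0.135% in any library. The share of CCND1 was higher in each rutaecarpine library than in each control library, with a narrow gap from control replicate 2. The summed level was 168 ± 36.7 TPM in the controls against 172 ± 19.7 TPM in the treated cells (SD, n = 3 each), with overlapping libraries. The shares are a description and were not tested.

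CDK4 (ENSG00000135446, chromosome 12, 57747727 to 57756013, minus strand), the D-cyclin kinase of this line by level, had a TPM of 215.05, 217.04 and 269.64 in the controls and 177.93, 213.87 and 220.01 after rutaecarpine. The groups overlapped, since rutaecarpine replicate 3 lay above control replicates 1 and 2. The log2 fold change was -0.20 (standard error 0.13, 95% confidence interval -0.49 to 0.10, adjusted p = 0.389 by limma). TSPAN31, which overlaps CDK4 on the opposite strand over 2485 bp, averaged 31.9 TPM in the controls and 29.6 TPM in the treated libraries, a log2 fold change of -0.11 (adjusted p = 0.533 by limma).
CDK6 (ENSG00000105810, chromosome 7, 92604921 to 92836594, minus strand), which binds the same D cyclins, was expressed at a far lower level. It had a TPM of 4.73, 4.37 and 1.48 in the controls and 3.01, 2.24 and 2.67 after rutaecarpine. The groups overlapped only through control replicate 3, which held the lowest value of all. With all 6 libraries the log2 fold change was -0.23 (standard error 0.33, 95% confidence interval -1.02 to 0.56, adjusted p = 0.708 by limma). Without control replicate 3, CDK6 fell by 0.61 on the log2 scale (standard error 0.17, adjusted p = 0.0479 by limma). CDK6 has the longest transcript of the members, at 11.6 kb, and its value in control replicate 3 was -1.16 on the log2 scale from the mean of the other controls.
CDK4 exceeded CDK6 by 45.5, 49.7 and 182 times in control replicates 1, 2 and 3 and by 59.1, 95.5 and 82.4 times in the rutaecarpine libraries. The log2 ratio of CDK6 to CDK4 averaged -6.22 ± 1.12 in the controls and -6.28 ± 0.35 in the treated libraries (SD, n = 3 each). The difference of -0.06 had an exact two-sided permutation p of 1, where 3 libraries against 3 allow no p below 0.1. Its sign turned without control replicate 1 (0.30), control replicate 2 (0.23) or rutaecarpine replicate 2 (0.09), and without control replicate 3 it was -0.71 (exact permutation p = 0.2).

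CDK2 (ENSG00000123374, chromosome 12, 55966769 to 55972784, plus strand), the kinase of cyclins E and A at the entry into S phase, was lower after rutaecarpine. Its TPM was 44.40, 51.50 and 34.06 in the controls and 25.92, 26.69 and 25.35 after rutaecarpine. Every rutaecarpine library lay below every control library, and the controls were spread far more widely than the treated libraries (43.3 ± 8.77 against 26.0 ± 0.672 TPM, SD, n = 3). The mean after rutaecarpine was 0.600 of the control mean, and CDK2 fell by 0.70 on the log2 scale (standard error 0.16, 95% confidence interval -1.07 to -0.33, adjusted p = 0.0372 by limma). Its place among the tested genes moved from the 78.3rd to the 65.3rd percentile. The call was lost when any library other than control replicate 3 was left out, with log2 fold changes between -0.72 and -0.56 and adjusted p between 0.102 and 0.147 by limma. Without control replicate 3, whose value was the lowest of the controls, the log2 fold change was -0.86 (adjusted p = 0.00125 by limma). With all 6 libraries, CDK2 missed the threshold when limma was run without the trend (adjusted p = 0.0554) or without the filter on low values (adjusted p = 0.0856). PMEL, which spans the whole of CDK2 on the opposite strand, had between 0.50 and 2.28 TPM.

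CDKN1B (ENSG00000111276, chromosome 12, 12715058 to 12722371, plus strand), the CIP/KIP inhibitor known to hold CDK2 inactive in resting cells, was the member with the highest log2 fold change. Its TPM was 36.32, 38.86 and 24.91 in the controls and 51.75, 48.91 and 50.86 after rutaecarpine. All 3 rutaecarpine libraries lay above all 3 controls and close to each other, and control replicate 3 was the lowest library. The ratio of the means was 1.51. With all 6 libraries the log2 fold change of 0.61 (standard error 0.17, 95% confidence interval 0.21 to 1.01) did not pass the test (adjusted p = 0.0732 by limma). Without control replicate 3, CDKN1B rose by a smaller 0.42 with a smaller standard error of 0.08 and passed it (adjusted p = 0.0114 by limma). Leaving out any other library gave no call, whereas centring the libraries (adjusted p = 0.0324), library weights (adjusted p = 0.00503) and the correction for length and GC content (adjusted p = 0.0154) each did.
CDKN1C (ENSG00000129757, chromosome 11, 2883213 to 2885773, minus strand), an imprinted inhibitor of the same family, stayed between 0.09 and 0.33 TPM in all libraries. Of 7 listed neighbours in its imprinted region, 3 were tested. NAP1L4, a histone chaperone gene, fell from 101 ± 1.28 to 74.6 ± 3.35 TPM (log2 fold change -0.43, adjusted p = 0.0173 by limma), and KCNQ1OT1, the antisense RNA of the region, reached no more than 0.18 TPM.

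CDKN2D (ENSG00000129355, chromosome 19, 10566462 to 10569059, minus strand), the one INK4 inhibitor gene expressed in these libraries, had the lowest adjusted p of the members. Its TPM was 35.24, 37.70 and 35.42 in the controls and 23.97, 20.89 and 21.96 after rutaecarpine. The groups were well apart and each was narrow, and control replicate 3 differed from the other controls by only -0.04 on the log2 scale. The mean fell from 36.1 ± 1.37 to 22.3 ± 1.56 TPM (SD, n = 3), a ratio of 0.617, and the log2 fold change was -0.68 (standard error 0.10, 95% confidence interval -0.92 to -0.43, adjusted p = 0.00891 by limma). CDKN2D moved from the 74.6th to the 61.4th percentile of the tested genes. When libraries were left out singly it passed the test in 5 of 6 fits, and without rutaecarpine replicate 3 the log2 fold change was -0.67 with an adjusted p of 0.0551 by limma. Its transcript, at 1.42 kb, is the shortest of the members.
CDKN2C (ENSG00000123080, chromosome 1, 50960745 to 50974633, plus strand), the other INK4 inhibitor of the set, was at 0.08 and 0.03 TPM in control replicates 1 and 3 and listed at 0 in the other 4 libraries. CDKN2A and CDKN2B, which encode the remaining INK4 inhibitors and lie outside the set, were each listed at 0 in 5 libraries, with 0.06 TPM of CDKN2A in rutaecarpine replicate 3 and 0.03 TPM of CDKN2B in control replicate 3. Thus CDKN2D was the only 1 of the 4 INK4 genes above 0.08 TPM in any library.

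The genes around CDKN2C were examined after its level was seen. GENCODE lists 12 protein-coding genes within 1 Mb of it, counting itself. The first 6 in chromosome order, AGBL4, ELAVL4, DMRTA2, FAF1, CDKN2C and C1orf185, reached no more than 0.13 TPM in any library. This run begins with the first gene of the window, so its extent beyond the window was not seen. FAF1, which encodes a Fas-associated factor that most cells express, held that highest value, in control replicate 1. How widely the other genes of the run are expressed in other cells was not examined. The next 6 all reached 1 TPM, beginning with RNF11 at 38.74 to 94.68 TPM. Whether the genes of the run are present in the DNA of these cells was not tested.

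**Figure D3:**
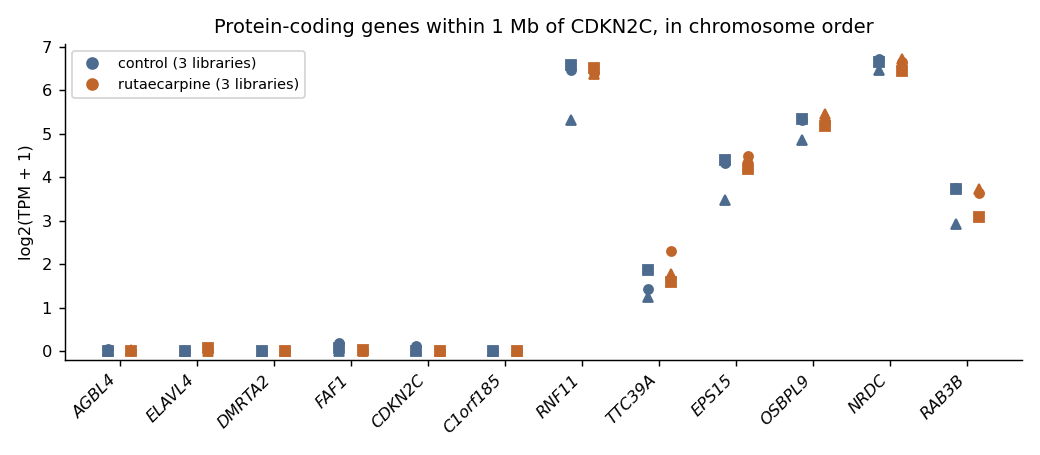
Expression of the 12 protein-coding genes within 1 Mb of CDKN2C in chromosome order, as log2(TPM + 1) in each of the 6 libraries, with circles, squares and triangles for replicates 1, 2 and 3. The 6 genes from AGBL4 to C1orf185 lie at or near 0, and the 6 from RNF11 to RAB3B do not.

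Among the 4 member inhibitors alone, which leave out the more abundant CDKN1A, the balance differed between the groups while the summed level overlapped (69.7 ± 8.29 TPM for the controls, 73.0 ± 2.86 TPM for the treated cells, SD, n = 3 each). CDKN1B made up 50.6%, 50.6% and 41.1% of the summed TPM of these 4 in control replicates 1, 2 and 3, and 68.2%, 69.7% and 69.6% after rutaecarpine. CDKN2D made up 49.1%, 49.1% and 58.5% in the controls and 31.6%, 29.8% and 30.1% after rutaecarpine. The shares did not overlap between the groups, including against the 2 controls that stood together. CDKN1B and CDKN2D made up nearly all of this sum, so their shares mirror each other. They restate the levels of the 2 genes, whose groups were each apart, and were not tested. With CDKN1A added, after its level was seen, the sums were 176.76 to 197.92 TPM in the controls and 218.73 to 233.05 TPM after rutaecarpine, and these groups were apart. CDKN1B then made up 14.1% to 19.9% of the sum in the controls and 21.8% to 23.3% after rutaecarpine, and CDKN2D averaged 19.5% ± 0.520 and 9.93% ± 0.762 (SD, n = 3 each).
Ratios within a library do not depend on its scaling. A shift that runs with transcript length, as in control replicate 3, need not cancel in ratios or shares between genes of unlike length. The ratios that follow were chosen after the values were seen and are given with no test. CDK2 over CDKN1B was 1.22, 1.33 and 1.37 in the controls and 0.501, 0.546 and 0.498 after rutaecarpine, a difference of -1.34 on the log2 scale. Control replicate 3 lay close to the other controls here, although it was the lowest control for both genes. CDKN1B over CDKN2D was 1.03, 1.03 and 0.703 in the controls and 2.16, 2.34 and 2.32 after rutaecarpine. CCND1 over CDKN1B was 4.29, 3.96 and 3.60 in the controls and 3.11, 2.58 and 2.92 after rutaecarpine, so the groups were apart although those of CCND1 itself overlapped. CCND1 over CCND3 was 4.47, 4.63 and 2.50 in the controls and 5.69, 5.17 and 5.31 after rutaecarpine, with control replicate 3 farthest from the treated libraries.

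**Figure D4:**
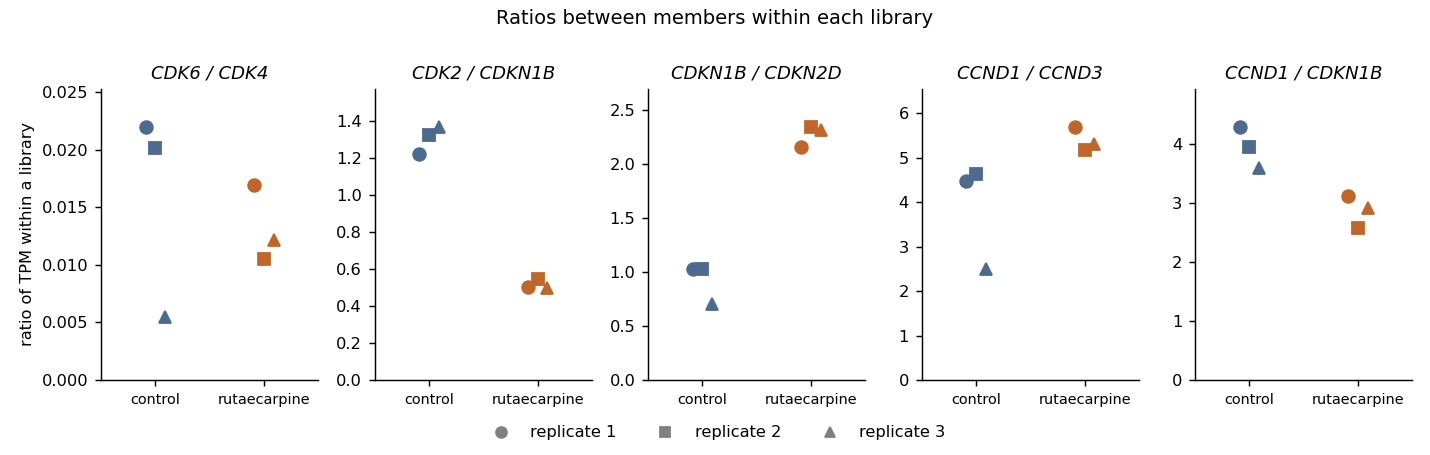
Ratio of the TPM of named members within each of the 6 libraries, 1 panel per ratio with a linear axis from 0 and one symbol per replicate. CDK2 over CDKN1B lies between 1.22 and 1.37 in the controls and between 0.498 and 0.546 after rutaecarpine, and CDK6 over CDK4 overlaps between the groups.

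The genes that act with the members were taken from 6 lists that were written with earlier results known. Of their 69 genes tested, 4 rose and 21 fell by the same limma test, where 4.6% of all genes tested were higher and 4.68% lower. The median log2 fold change over all genes tested was 0.08. With all libraries, 662 of all genes tested were higher and 673 lower. Without control replicate 3 the list counts were 5 and 32 (all genes 1179 and 1487). They were 2 and 15 without control replicate 1 (all genes 376 and 299) and 3 and 14 without control replicate 2 (395 and 323). Leaving out rutaecarpine replicate 1, 2 or 3 gave 2 and 12 (all genes 310 and 299), 3 and 15 (342 and 304) or 2 and 13 (278 and 261). Of the 21 that fell, 11 were in the list of G1/S target genes of E2F, and the lists do not sort the others by whether E2F regulates them. E2F2, also among the 21, met the filter only through the controls.
Errors that follow a TPM mean are SD over 3 libraries. Of 10 partners at the G1/S border, 8 were tested, with 1 higher, 4 lower and a median log2 fold change of -0.90. CCNA2, which encodes the cyclin that drives CDK2 through S phase, fell from 33.5 ± 9.76 to 14.2 ± 2.42 TPM (log2 fold change -1.15, adjusted p = 0.0310 by limma). CDK1, the mitotic kinase, CDC25A, the phosphatase that activates CDK2, and CDKN3, a phosphatase that acts on CDK2, had log2 fold changes of -1.18, -0.69 and -1.11 and passed the test. CDKN1A, the third CIP/KIP inhibitor gene, rose from 116 ± 4.99 to 152 ± 7.43 TPM (log2 fold change 0.38, adjusted p = 0.0280 by limma), at a level above that of CDKN1B in every library. The cyclin E genes did not pass the test. CCNE1 averaged 7.82 ± 0.749 TPM in the controls and 6.25 ± 0.482 TPM in the treated libraries (adjusted p = 0.307 by limma), and CCNE2 had 7.69 ± 3.29 and 2.74 ± 0.549 TPM (log2 fold change -1.14, adjusted p = 0.0762 by limma).

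None of the 3 genes of the CDK-activating kinase, which phosphorylates CDK2 and CDK4, passed the test, and their median log2 fold change was 0.12. Of 14 genes that turn over G1 cyclins and CIP/KIP inhibitors, 13 were tested, with 1 higher, 1 lower and a median of 0.02. DDB1, an adaptor of the CUL4 ubiquitin ligases, rose from 139 ± 0.666 to 228 ± 15.6 TPM (log2 fold change 0.70, adjusted p = 0.00271 by limma). CKS1B, the cofactor with which SKP2 recognises the CDKN1B protein, fell from 156 ± 18.7 to 99.4 ± 10.7 TPM (log2 fold change -0.64, adjusted p = 0.0188 by limma). SKP2 itself had a log2 fold change of -0.62 (adjusted p = 0.298 by limma), and FBXW7, which marks cyclin E for destruction, one of 0.39 (adjusted p = 0.577 by limma). The lowest value of FBXW7 was that of control replicate 3, at 2.37 TPM against 7.64 and 8.65 TPM in the other controls.
All 13 pocket protein and E2F genes were tested, with 0 higher, 4 lower and a median log2 fold change of 0.22. E2F1, an activator of S-phase genes, fell from 49.6 ± 2.71 to 23.5 ± 1.42 TPM (log2 fold change -1.05, adjusted p = 0.00151 by limma). The repressor E2F8 and the E2F partner TFDP1 also fell, with log2 fold changes of -1.29 and -0.53. The activator E2F2 had 2.12, 2.28 and 2.03 TPM in the controls and 0.58, 0.62 and 0.62 TPM after rutaecarpine. Its log2 fold change was -0.97, a value that the added 1 makes smaller. E2F2 met the filter only through the controls, where it was high, so it could be called only as lower. RB1, which encodes the retinoblastoma protein, had a log2 fold change of 0.27 (adjusted p = 0.596 by limma). Its value in control replicate 3 was 5.51 TPM, against 12.51 and 11.86 TPM in the other controls and 10.70 to 12.55 TPM after rutaecarpine.
The 16 target genes of E2F at the G1/S border had a median log2 fold change of -0.995. By limma 11 of the 16 fell and 0 rose, where 4.68% of all genes fell. The rutaecarpine libraries lay below all controls for 14 of the 16, as they did for 14.0% of all genes. Those that fell were CDT1, MCM2, MCM3, MCM5, MCM6 and MCM7 of replication licensing, PCNA, the sliding clamp of DNA polymerase, the nucleotide synthesis genes TYMS, TK1 and RRM2, and UHRF1, which guides maintenance methylation. TK1 changed most, from 149 ± 12.0 to 51.9 ± 4.61 TPM (log2 fold change -1.51, adjusted p = 0.000466 by limma), and MCM6 least, with a log2 fold change of -0.89.
Of 18 transcriptional inputs to the D cyclins and CIP/KIP inhibitors, 16 were tested, with 2 higher, 1 lower and a median log2 fold change of 0.24. MYC, which raises D cyclins and represses CIP/KIP inhibitors in many cells, fell from 56.8 ± 1.30 to 35.5 ± 3.17 TPM (log2 fold change -0.67, adjusted p = 0.00785 by limma). JUN, the AP-1 subunit that activates CCND1, rose from 190 ± 26.3 to 353 ± 22.8 TPM (log2 fold change 0.90, adjusted p = 0.00514 by limma), and MXD1, a partner of MAX that opposes MYC, rose by 1.02 (adjusted p = 0.0144 by limma). Among 10 genes that overlap or neighbour other members, 5 were tested, 0 passed the test and the median was -0.11.

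**Figure D5:**
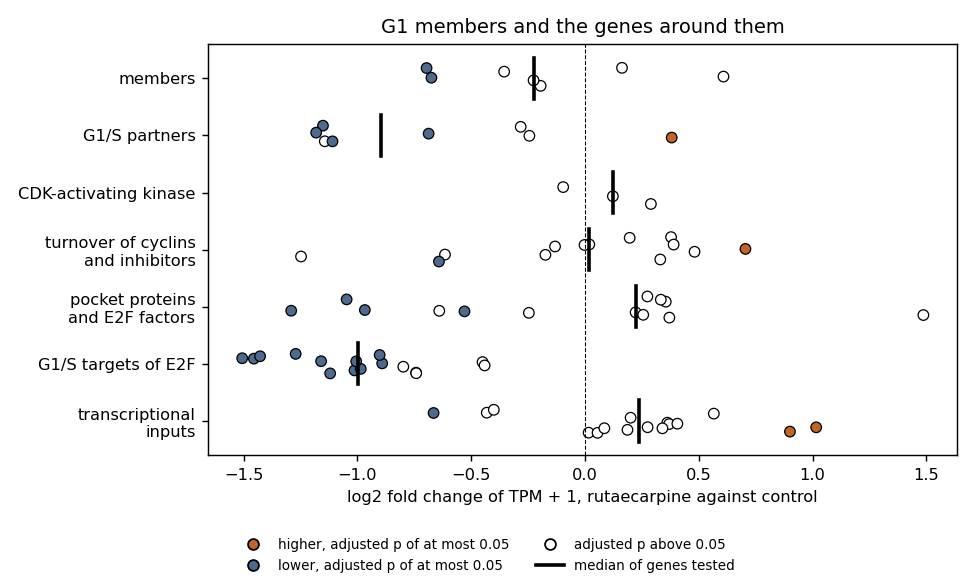
Log2 fold change of TPM + 1 after rutaecarpine for the members and 6 lists of genes around them, 1 point per gene tested, filled where the adjusted p by limma is at most 0.05, with a bar at the median of the list. Targets of E2F lie furthest to the left as a list, with a median of -0.995, against a median of 0.22 for the pocket proteins and E2F factors. All medians include control replicate 3, which held the lowest value of several pocket protein and E2F genes, such as RB1, RBL2 and E2F3.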

How the data were processed

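RNA-Seq libraries of U87 cells, 3 given rutaecarpine and 3 given DMSO, were grouped by the sample labels. The authors sequenced them on an Illumina NovaSeq, quantified genes with RSEM on GRCh38.p13 and deposited TPM, which keep no read numbers, so depth and counting error are unknown and count methods were not used. DESeq2, DEGseq and edgeR are named for the authors' own tests. The aligner and the annotation release are not given in the sources used here. All 6 columns were matched to samples.

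TPM were transformed to log2(TPM + 1) and compared with limma 3.58.1 in R 4.3.3 (empirical Bayes with a mean-variance trend, two-sided, Benjamini-Hochberg adjustment). The 14377 genes that reached 1 TPM in 3 or more libraries entered the test. The added 1 understates changes of weakly expressed genes. RSEM divides reads shared by overlapping genes, whose values are therefore less certain. The fit was tested on simulated data with planted changes larger than that of any member and with no deviant library. How well it finds changes of the size seen in the members was not tested. The ratio of CDK6 to CDK4 was compared by an exact permutation test in scipy 1.17.1. Positions and transcript lengths came from GENCODE release 29 and promoter windows from RefSeq (GRCh38.p14), so the annotation may differ from that of the authors. Protein sequences were not used here. Tables and figures were made in Python 3.11.15 with pandas 2.3.3, numpy 2.4.6 and matplotlib 3.10.9.

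The members and the gene lists were chosen with earlier results of these data known. Genes named were all members, every list gene that passed the test at 0.05, and CCNE1, CCNE2, CDKN1A, CDKN2A, CDKN2B, RB1, E2F1, SKP2, FBXW7, MYC, KCNQ1OT1 and TSPAN31. Other genes, such as those near CDKN2C, were named after their values were seen. The alternatives were centring on library medians, no trend, any gene above 0 TPM in place of the filter, a filter of 1 TPM in all libraries, a pseudocount of 0.1, the replicate number as a block, library weights (arrayWeights), removal of a trend on length and GC content (splines with 5 degrees of freedom), and leaving out each library in turn.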

Additional observations from a re-analysis of the deposited data

How the results depend on the processing

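Over 163 recomputed values, 115 were kept and 5 turned sign. Another 25 lost a call or dropped to a clearly lower count, and 18 gained a call or a clearly higher count. A fold change was kept if its direction and side of the threshold held. A count was kept if it stayed fairly close, as did 14 and 27 list genes called lower against 21. For the CDK6 to CDK4 ratio only the direction could change, since its exact permutation p cannot fall below 0.1. The causes were not tested. Removing the trend on length and GC content brought CCND3 (-0.34, adjusted p = 0.0243 by limma) and CDKN1B (0.57, adjusted p = 0.0154) past the threshold. Library weights, which gave control replicate 3 a weight of 0.121 against 0.611 to 2.49 for the others, did so for CCND3 (-0.29, adjusted p = 0.0235), CDK6 (-0.51, adjusted p = 0.0489) and CDKN1B (0.44, adjusted p = 0.00503) and turned CCND1 to -0.01 (unrounded -0.00778). Centring did so for CDKN1B (0.52, adjusted p = 0.0324). CDK2, at -0.70, missed the threshold without the trend (adjusted p = 0.0554) and without the filter (adjusted p = 0.0856). Members called higher were thus 1 under centring, weights and the length correction, against 0, and members called lower were 1 without the trend, 1 without the filter and 4 with weights, against 2. For the 6 lists, the counts of higher and lower genes were 7 and 33 with weights and 7 and 32 with the length correction, against 4 and 21. Over all genes tested, 662 were higher and 673 lower. The counts were 594 and 618 without the trend, 593 and 786 with centring, and 1935 and 2027 with weights. They were 1301 and 1461 with the length correction, 1179 and 1487 without control replicate 3, and 453 and 439 of 29330 genes without the filter.

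Leaving out each library in turn gave log2 fold changes of -0.10 to 0.30 for CCND1, -0.39 to -0.29 for CCND3, -0.25 to -0.09 for CDK4, -0.61 to -0.01 (unrounded -0.00917) for CDK6, -0.86 to -0.56 for CDK2, 0.42 to 0.73 for CDKN1B and -0.73 to -0.63 for CDKN2D. Members called higher ranged from 0 to 1 and lower from 0 to 3, and list genes called higher from 2 to 5 and lower from 12 to 32. In the same fits, genes called higher over all 14377 tested ranged from 278 to 1179 and those called lower from 261 to 1487. The log2 ratio of CDK6 to CDK4 ranged from -0.71 to 0.30.

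Same-numbered libraries of the groups did not deviate together (correlations of 0.12, -0.27 and -0.22, and 0 of 3 controls closest to their own number), so the numbers were not taken as pairs. With the replicate number as a block, 236 genes were higher and 192 lower, CDK2 (-0.70, adjusted p = 0.0969 by limma) and CDKN2D (-0.68, adjusted p = 0.0824) missed the threshold, 0 members passed it in either direction, and 2 and 12 list genes were higher and lower. A block cannot move a difference of means between 3 and 3 libraries, so the -0.06 of the CDK6 to CDK4 ratio says nothing of its stability there. TPM carry no depth, so differences among genes below 1 TPM, such as CCND2, CDKN1C and CDKN2C, were not detectable here.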

Other observations

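Some genes around the members stood out after their values were seen and fall outside the naming rule. E2F7, an atypical E2F that represses S-phase genes, had 16.39, 15.64 and 5.69 TPM in the controls and 39.72, 26.79 and 36.65 TPM after rutaecarpine, with a log2 fold change of 1.49 and an adjusted p of 0.0551 by limma, while its relative E2F8 fell. DTL, the substrate receptor of the CUL4-DDB1 ligase in S phase, had 14.97, 11.40 and 5.97 TPM in the controls and 3.75, 3.22 and 4.14 TPM after rutaecarpine, with an adjusted p of 0.0501 by limma, whereas DDB1 rose. FOXO1, an activator of CDKN1B in many cells, had 8.11 TPM in rutaecarpine replicate 3 and no more than 1.11 TPM in the other 5 libraries. GPR19, a receptor gene next to CDKN1B, had 2.86, 2.76 and 0.80 TPM in the controls and 0.36, 0.52 and 0.83 TPM after rutaecarpine and was not tested.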
